A study of Mus musculus with 8 samples.

Results

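The TNF ligand and receptor superfamilies were read in mouse glomeruli by 76 of the 25697 probes of an Illumina MouseRef-8 v1.1 BeadChip, which represent 45 of 17850 genes. Members were chosen by gene symbol, though the family itself was picked with earlier results of these data known: symbols that start with Tnfrsf or Tnfsf and a number, and *Tnf*, *Lta*, *Ltb*, *Ltbr*, *Cd40*, *Cd27*, *Fas*, *Ngfr*, *Eda2r* and *Edar*. The array's older symbols were updated, so that *Cd40lg*, *Fasl* and *Relt* are among the members under their current names. *Psmg2*, a proteasome assembly chaperone, was included only because its older symbol, Tnfsf5ip1, fits the pattern, and it is no TNF family protein.

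The arrays compared 4 Cd151-/- with 4 Cd151+/+ mice, male FVB/N animals of 3 weeks of age, 1 mouse per array and numbered 1 to 4 within each genotype. The mutant mice lack the tetraspanin CD151 through a homozygous deletion of its gene. On the FVB/N background they develop proteinuria and damage to the glomerular basement membrane. Glomeruli were trapped with magnetic beads perfused through the heart and digested free of the kidney, so the RNA is a bulk mixture of podocytes, endothelium, mesangium and whatever adhered. Fewer cells of a type and less RNA per cell cannot be told apart in it.

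TNF family ligands are mostly trimeric membrane proteins that can be cleaved into soluble form, and each engages 1 or several receptors. Receptors with a cytoplasmic death domain, such as TNFR1, FAS and the TRAIL receptor, recruit FADD or TRADD and can start caspase-dependent death. The others bind TRAF adaptors and activate NF-kB and JNK, and decoy receptors bind ligand without a functional death domain. In the kidney TNF and its receptors are best known from inflammatory glomerular injury, and the TWEAK receptor Fn14, encoded by *Tnfrsf12a*, from injury of tubular, mesangial and podocyte cells.

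Levels are given as normalised log2 signal, after subtraction of each array's background and quantile normalisation, on which a difference of 1 is a doubling. They are comparable between mice for a probe but not between probes. The targeted gene was absent where the labels say so: the brightest of 3 *Cd151* probes read 14.37 ± 0.24 (SD, n = 4) in Cd151+/+ and 4.57 ± 0.08 in Cd151-/- mice, in which none of the 3 was detected. The median signal of the arrays was 65.7 to 77.4 on 4 arrays (mice 1 and 2 of Cd151+/+, mice 3 and 4 of Cd151-/-), and 143 to 164 on the other 4, so that each of these sets of arrays holds 2 mice of each genotype. Differences within each set are given beside the leading genes. The sets are called arrays of lower and of higher background, names that refer to this median signal alone. Nothing in the labels says what separates the sets. The 5 tested podocyte markers were detected on every array.

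Of the 45 family genes, 28 were tested, with 44 probes, because at least 1 array detected them (detection p-value not above 0.05). The other 17 were detected on none of the 8 arrays. They include the ligands *Fasl*, *Cd40lg*, *Tnfsf4*, *Tnfsf10* (TRAIL), *Tnfsf12* (TWEAK), *Tnfsf14* (LIGHT), *Tnfsf15* (TL1A) and *Tnfsf18*, and the receptors *Tnfrsf1b* (TNFR2), *Tnfrsf8*, *Tnfrsf11a* (RANK), *Tnfrsf13b*, *Tnfrsf13c*, *Tnfrsf14*, *Tnfrsf18*, *Tnfrsf23* and *Tnfrsf26*. A signal below detection does not show that the RNA is absent. On all 8 arrays 12 genes were detected: *Tnfrsf1a*, *Tnfrsf12a*, *Tnfrsf21*, *Tnfrsf22*, *Tnfrsf25*, *Fas*, *Ltbr*, *Cd40*, *Cd27*, *Relt*, *Psmg2* and the read-through transcript Tnfsf12-tnfsf13. The detected receptors for TWEAK, TRAIL, FAS ligand and TL1A thus stood beside ligands of which the arrays detected none, apart from the read-through symbol that joins *Tnfsf12* to *Tnfsf13*. The remaining 16 genes were detected on 1 to 7 arrays, 7 of them on at most 2. Among these, 4 were tested only because of Cd151-/- arrays (*Eda2r*, *Tnfrsf9*, *Tnfrsf17* and *Tnfsf8*) and 1 only because of a Cd151+/+ array (*Lta*). The number of family probes detected per array was 27 to 31 in Cd151+/+ and 25 to 32 in Cd151-/- mice.

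**Figure D1:**
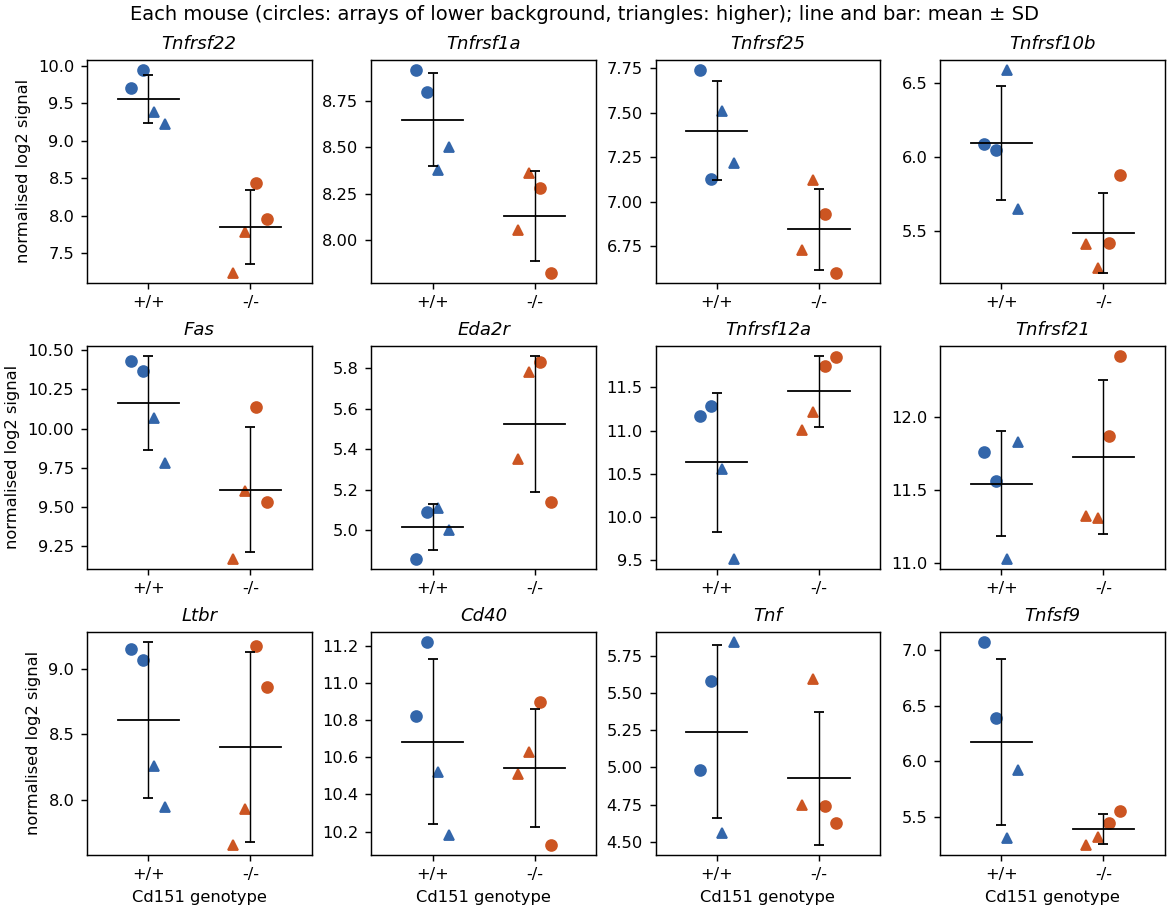
Normalised log2 signal in each mouse for 12 of the family genes described. Each point is 1 mouse, the line and bar are the mean and SD of a genotype. Circles and triangles mark arrays of lower and higher median signal, called lower and higher background. The 4 Cd151-/- values of *Tnfrsf22*, 7.24 to 8.43, lie below the 4 Cd151+/+ values, 9.22 to 9.94.

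In the limma test at an unadjusted p of 0.05, 5 of the 28 tested family genes were lower in Cd151-/- glomeruli (*Tnfrsf22*, *Tnfrsf1a*, *Tnfrsf25*, *Tnfrsf10b* and *Tnfsf9*) and 1 was higher (*Eda2r*). Those are 17.9% and 3.57% of the tested members, while over all 11104 genes 2.46% were lower and 1.90% higher by the same rule. *Eda2r* was tested only because Cd151-/- arrays detected it, so nothing is read from its share. After Benjamini-Hochberg adjustment over every tested probe none of the 28 remained, against 0.0270% of all genes. In 3 family genes (*Tnfrsf22*, *Tnfrsf1a* and *Tnfrsf25*) every Cd151-/- mouse was below every Cd151+/+ mouse, and in *Eda2r* every one was above. Such separation occurred in 1.33% of all genes downward and in 0.937% upward. *Tnfrsf1a* and *Tnfrsf22* had been picked out from these same samples by the study, so their share of the count is not independent evidence. Leaving out mouse 1 of either genotype brought the count of lower genes to 1, leaving out Cd151+/+ mouse 2 to 2, and leaving out Cd151+/+ mouse 3 or Cd151-/- mouse 2 to 3. The count of higher genes was 0 without Cd151+/+ mouse 3 or 4 or Cd151-/- mouse 2 or 3.

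The median log2 fold change of the 28 tested genes, of which 16 were detected on fewer than 8 arrays, was -0.06. In all, 17 were below 0, with a range from -1.71 to 0.82. Over all genes the median was 0, with 50.3% below 0 against 60.7% of the family. With detection on all 4 arrays of a group required, the family's median was -0.27, beside -0.01 over all genes. Taken mouse by mouse against the Cd151+/+ mean, the family's median difference was -0.20, -0.25, -0.05 and 0 in Cd151-/- mice 1 to 4, an SD of 0.12. Among the roles, the TNF, death and EDA receptors had 3 lower of 8 tested, beside 2.46% of all genes, and *Eda2r* as the 1 higher, with a median of -0.46. The 7 tested ligands had 1 lower and a median of -0.31, and the 5 tested receptors of lymphocytes had none in either direction and a median of 0.02.

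**Figure D2:**
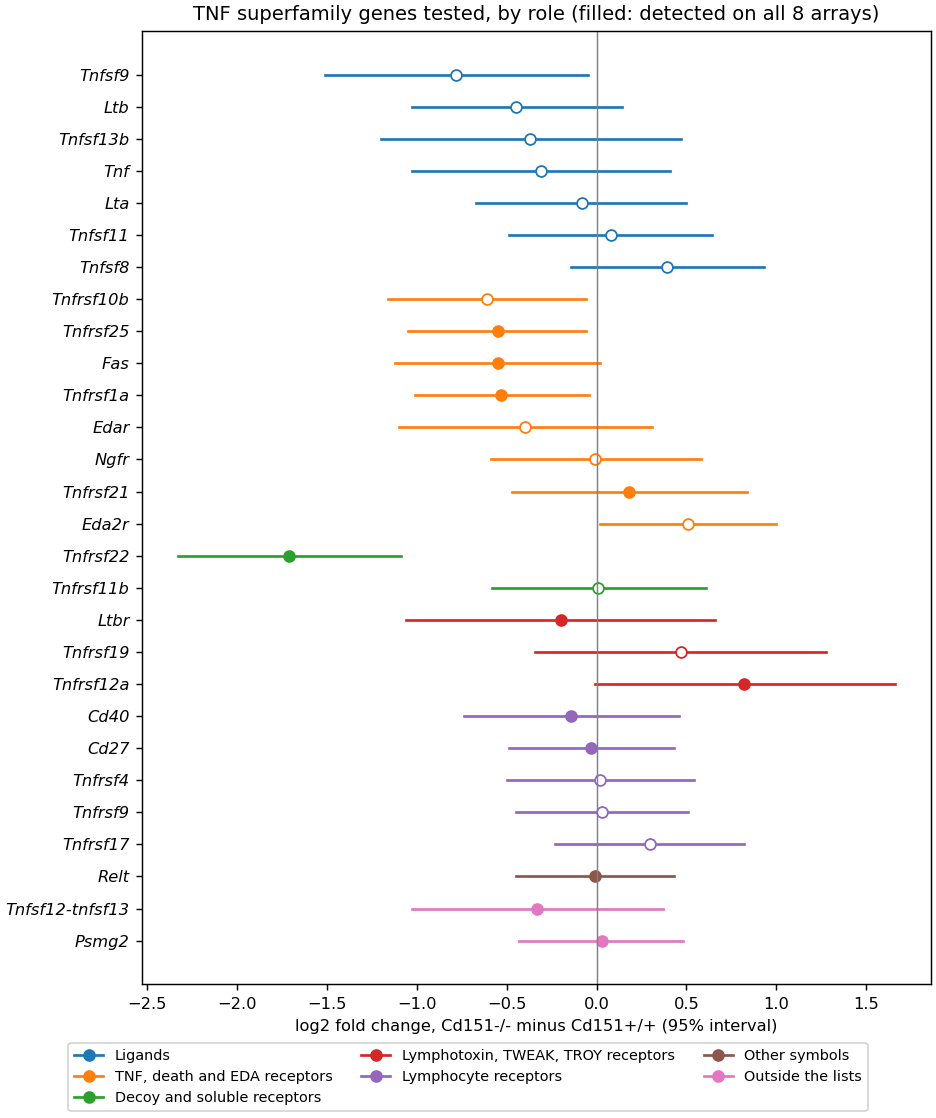
Log2 fold change (Cd151-/- minus Cd151+/+) of the 28 tested family genes with its 95% interval from limma, ordered by role; filled points were detected on all 8 arrays. The interval of *Tnfrsf22*, -2.33 to -1.09, is the farthest from 0, and most of the others include it.

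*Tnfrsf22* encodes a decoy receptor that binds TRAIL and lacks a death domain. Its signal in Cd151+/+ mice 1 to 4 was 9.70, 9.94, 9.38 and 9.22, and in Cd151-/- mice 1 to 4 it was 7.24, 7.78, 8.43 and 7.96. The groups were 0.79 apart at their nearest mice, and the lowest of all was Cd151-/- mouse 1. The mean went from 9.56 ± 0.32 to 7.85 ± 0.49 (SD, n = 4 each), a log2 fold change of -1.71 (SE 0.28, 95% interval -2.33 to -1.09), or 3.27-fold lower. The unadjusted limma p was 8.61e-05 and the adjusted p 0.184, and the exact permutation test gave the smallest p that 4 mice against 4 allow, 0.0286. Within the arrays of lower background the difference was -1.63 and within those of higher background -1.79. Leaving out each mouse in turn gave -1.90 to -1.51, with an unadjusted p under 0.05 each time. The adjusted p passed 0.05 under 2 of the other settings tried, limma's array weights (0.0102) and a block by set of arrays (0.0131), and over all the settings on 8 mice it ran from 0.0102 to 0.998.

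A second *Tnfrsf22* probe, detected in 3 Cd151+/+ and 2 Cd151-/- mice, was also lower, from 5.84 to 5.08 (log2 fold change -0.76, SE 0.34, unadjusted limma p = 0.0472, exact permutation p = 0.143), with overlapping groups. The third *Tnfrsf22* probe was not detected. *Tnfrsf22* lies between *Tnfrsf26* and *Tnfrsf23* in a cluster on the chromosome that also carries *Cd151*, and neither neighbour was detected on any array. RefSeq (GRCm38.p6) places 48 protein-coding genes between *Cd151* and *Tnfrsf26*. The tested genes that start in this stretch, not restricted to protein-coding ones, number 23. Of these, 1 was lower (*Tspan32*) and 2 were higher at an unadjusted limma p of 0.05. That is 4.35% and 8.70% of the 23, against 2.46% and 1.90% of all genes. Their median log2 fold change was -0.04. What part the closeness to the targeted locus had in the *Tnfrsf22* difference was not tested.

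Over the 8 mice, the genes whose pattern was most like that of *Tnfrsf22* were *Lrrc1* (Pearson r = 0.982), *Zfp414* (r = 0.967), *Fkbp8* (r = 0.964), *Lrrc45* (r = 0.959) and *BC066028* (r = 0.951). These correlations describe 8 points in 2 genotypes, and in all 5 genes the Cd151-/- mice lay below the Cd151+/+ mice without overlap. Their log2 fold changes, -0.90 to -0.35, were smaller than that of *Tnfrsf22*. *Tnfrsf11b* encodes osteoprotegerin, the soluble decoy for RANKL that also binds TRAIL. It was detected in 1 mouse of each genotype, at 5.55 in Cd151+/+ mouse 1 and 5.55 in Cd151-/- mouse 4, and the other 6 values were 4.70 to 5.13. Its difference was 0.01 (95% interval -0.58 to 0.61), with no settled sign, since it was -0.19 after scaling to the 75th percentile and -0.07 with array weights.

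*Tnfrsf1a* encodes TNFR1, the receptor through which soluble TNF acts on most cells. Its signal in Cd151+/+ mice 1 to 4 was 8.92, 8.80, 8.38 and 8.50, and in Cd151-/- mice it was 8.05, 8.36, 8.28 and 7.82. The groups did not overlap, but Cd151+/+ mouse 3 and Cd151-/- mouse 2 were only 0.02 apart. The log2 fold change was -0.53 (SE 0.22, 95% interval -1.01 to -0.04), or 1.44-fold lower, from 8.65 ± 0.25 to 8.13 ± 0.25, with an unadjusted limma p of 0.0371, an adjusted p of 0.918 and an exact permutation p of 0.0286. The other tested probes of the gene were lower by a like amount, -0.49 and -0.47 (unadjusted limma p = 0.051 and 0.0678, exact permutation p = 0.0286 and 0.0571). Within the arrays of lower background the difference was -0.81 and within those of higher background -0.24. The unadjusted p went above 0.05 without Cd151+/+ mouse 1 (0.114) or mouse 2 (0.0966), and without Cd151-/- mouse 1 (0.079) or mouse 4 (0.0988). It was 0.0582 after scaling to the 75th percentile and 0.0511 with a trended and robust variance. *Tnfrsf1b*, which encodes the other TNF receptor, was not detected.

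*Tnfrsf25* encodes DR3, the death-domain receptor for TL1A. Its signal was 7.74, 7.13, 7.51 and 7.22 in Cd151+/+ mice 1 to 4 and 6.73, 7.12, 6.93 and 6.60 in Cd151-/- mice 1 to 4. Here too the groups met without overlap, at mouse 2 of each genotype, 0.01 apart. The log2 fold change was -0.55 (SE 0.22, 95% interval -1.05 to -0.06), or 1.47-fold lower, from 7.40 ± 0.28 to 6.85 ± 0.22 (unadjusted limma p = 0.0304, adjusted p = 0.918, exact permutation p = 0.0286), and it was -0.67 and -0.44 within the arrays of lower and higher background. Without Cd151+/+ mouse 1 or 3, or Cd151-/- mouse 1 or 4, the unadjusted p was 0.102, 0.0649, 0.072 and 0.0754, and with a trended and robust variance 0.0572. Without background subtraction the difference was -0.33. The other *Tnfrsf25* probe was detected on no array.

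**Figure D3:**
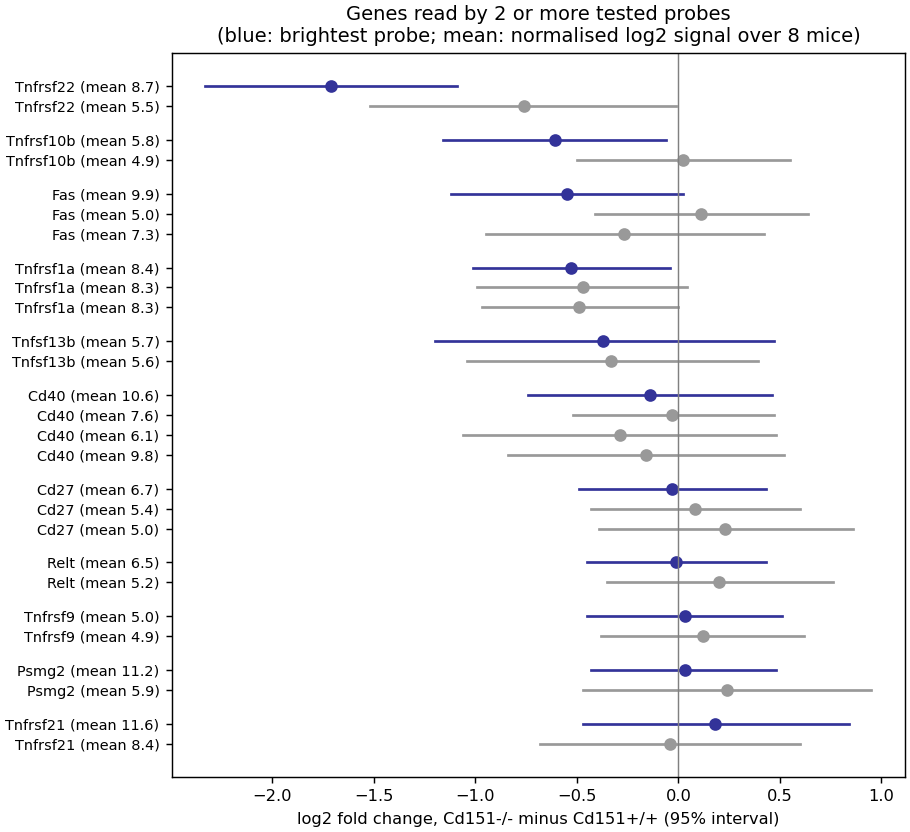
Log2 fold change with its 95% interval for every tested probe of the family genes that had several tested probes, 1 point per probe. The 3 *Tnfrsf1a* probes lie together between -0.53 and -0.47, whereas the 2 *Tnfrsf22* probes lie at -1.71 and -0.76.

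*Tnfrsf10b* encodes the TRAIL receptor with a death domain. In Cd151+/+ mice 1 to 4 it read 6.09, 6.05, 6.59 and 5.65, and in Cd151-/- mice 5.41, 5.25, 5.42 and 5.88. Cd151-/- mouse 4 overlapped the Cd151+/+ group. The log2 fold change was -0.61 (SE 0.25, 95% interval -1.16 to -0.06), 1.52-fold lower, with an unadjusted limma p of 0.0339 and an exact permutation p of 0.0571. A second tested probe of the gene, detected on 1 array, differed by 0.02. Of the gene's 5 probes 2 were tested, and the rest were detected on no array. The unadjusted p passed 0.05, at 0.0548 to 0.102, on leaving out mouse 1, 2 or 3 of either genotype. It was 0.0803 after scaling to the 75th percentile and 0.0545 with a trended and robust variance, and without background subtraction the difference was -0.23 (0.0779). Within the arrays of lower and higher background the difference was -0.42 and -0.79.

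*Fas* encodes the receptor for FAS ligand. Its signal was 10.43, 10.37, 10.07 and 9.78 in Cd151+/+ mice 1 to 4 and 9.17, 9.60, 10.14 and 9.53 in Cd151-/- mice 1 to 4. Cd151-/- mouse 3 reached the Cd151+/+ range and the other 3 stayed below it. The difference, -0.55 (SE 0.26, 95% interval -1.12 to 0.02; 10.16 ± 0.30 against 9.61 ± 0.40), missed the unadjusted threshold (limma p = 0.0573, exact permutation p = 0.0857). It was -0.56 and -0.54 within the sets of arrays of lower and higher background, and with a block by set the unadjusted limma p was 0.0172. Without Cd151+/+ mouse 4 or Cd151-/- mouse 3 it was 0.0311 and 0.0169, without background subtraction 0.0376, and with an offset of 50 it was 0.0414. With array weights, which called 16.5% of all genes lower, the difference was -0.87 (0.00239). The other *Fas* probes differed by -0.27 and 0.11, the latter a probe detected on 1 array.

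*Eda2r*, which encodes the receptor for the EDA-A2 form of ectodysplasin, was the tested member that was higher by the unadjusted rule. It was detected in 0 Cd151+/+ and 3 Cd151-/- mice, so it was tested only through the group in which it was high. Its signal was 4.86, 5.09, 5.11 and 5.00 in Cd151+/+ mice and 5.35, 5.78, 5.83 and 5.14 in Cd151-/- mice 1 to 4, with no overlap. Cd151+/+ mouse 3 and Cd151-/- mouse 4 were only 0.03 apart, and the probe was detected in neither. Against the lowest detected signal on the Cd151+/+ arrays the Cd151-/- mean was 1.11-fold higher, which was not tested. That mean includes Cd151-/- mouse 4, in which the probe was not detected either, so the 1.11 is no strict bound. The tests apply to the fitted difference of 0.51 (unadjusted limma p = 0.0427, adjusted p = 0.918, exact permutation p = 0.0286). Because of how the gene came to be tested, nothing is read from them. The unadjusted p was above 0.05 (0.0554 to 0.132) on leaving out any mouse but Cd151-/- mouse 4. It was 0.106 without background subtraction, 0.0547 with the cubic spline, 0.417 after scaling to the 75th percentile and 0.0772 with an offset of 50, where the fitted difference, which is no bound, went from 0.51 to 0.19, 0.44, 0.28 and 0.28. *Edar*, whose product binds the EDA-A1 form, differed by -0.40 (95% interval -1.10 to 0.31).

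Not all death-domain receptors were lower. *Tnfrsf21*, which encodes DR6, read 11.76, 11.56, 11.03 and 11.83 in Cd151+/+ mice and 11.32, 11.31, 11.87 and 12.42 in Cd151-/- mice 1 to 4. The groups overlapped throughout and the difference was 0.18 (95% interval -0.47 to 0.84, exact permutation p = 0.6), with -0.04 for a second probe and -0.13 with array weights, so its sign is not settled. *Ngfr*, which encodes the neurotrophin receptor p75, was detected in 1 mouse of each genotype and differed by -0.01 (95% interval -0.59 to 0.58).

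To show the sequence before the starts of the pair of death-domain receptors without overlap of the groups, and of *Tnfrsf12a*, the 250 bases before each are printed, from RefSeq on GRCm38.p6, an assembly of the C57BL/6J and not of the FVB/N strain. The motifs searched, on both strands, were TGANTCA (AP-1), GGGNN followed by TTNCC (NF-kB), GGGCGG (Sp1) and TATAAA (the TATA box), and capitals mark the matches. *Tnfrsf1a* (chr6:125349473-125349722, + strand) held none of the 4, and *Tnfrsf25* (chr4:152115684-152115933, + strand) held 1 NF-kB match and no other. The window before a second listed *Tnfrsf25* start held none. *Tnfrsf12a* (chr17:23677450-23677699, - strand), which had the highest fitted difference as reported, held 5 Sp1 matches, of which a pair adjoin.
Tnfrsf1a: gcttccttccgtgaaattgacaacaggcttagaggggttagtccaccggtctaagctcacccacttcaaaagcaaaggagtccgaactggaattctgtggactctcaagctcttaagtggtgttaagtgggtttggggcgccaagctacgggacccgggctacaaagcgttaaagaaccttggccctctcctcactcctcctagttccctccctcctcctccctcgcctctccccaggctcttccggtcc
Tnfrsf25: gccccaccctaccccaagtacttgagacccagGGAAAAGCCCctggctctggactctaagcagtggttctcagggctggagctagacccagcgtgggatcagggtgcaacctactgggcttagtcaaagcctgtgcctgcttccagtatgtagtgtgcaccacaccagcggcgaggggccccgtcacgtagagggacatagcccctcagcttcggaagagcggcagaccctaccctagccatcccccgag
Tnfrsf12a: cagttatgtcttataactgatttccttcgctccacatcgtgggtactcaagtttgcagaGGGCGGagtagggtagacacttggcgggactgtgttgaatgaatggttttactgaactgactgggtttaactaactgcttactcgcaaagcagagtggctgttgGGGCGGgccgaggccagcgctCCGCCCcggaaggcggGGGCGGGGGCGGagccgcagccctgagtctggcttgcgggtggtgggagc
Family genes that were not tested were not looked up. The listed windows of the 21 tested family genes that matched the RefSeq list number 25. Of these, 11 (44.0%) held the Sp1 letters, 5 (20.0%) the TATA letters, 3 (12.0%) the NF-kB letters and 3 (12.0%) the AP-1 letters. Among all 32851 windows of the same length the shares were 32.7%, 12.4%, 4.11% and 6.75%. These are matches of letters and not measured binding.

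*Tnfrsf12a*, which encodes Fn14, the receptor for TWEAK, had the highest fitted difference of the 28 genes. It lost that rank on leaving out Cd151+/+ mouse 4 or Cd151-/- mouse 3 or 4. Its signal in Cd151+/+ mice 1 to 4 was 11.17, 11.28, 10.56 and 9.52, and in Cd151-/- mice 1 to 4 it was 11.01, 11.21, 11.74 and 11.85. Cd151+/+ mouse 4 was the lowest by a wide gap, while Cd151+/+ mice 1 and 2 lay within the Cd151-/- range. The log2 fold change was 0.82 (SE 0.38, 95% interval -0.01 to 1.66), 1.77-fold, from 10.63 ± 0.80 to 11.45 ± 0.41, which missed the unadjusted threshold (limma p = 0.0533, exact permutation p = 0.143). The gene was also brighter on the arrays of lower background than on the others, by 1.18 in Cd151+/+ and 0.69 in Cd151-/- mice. Within those sets the genotype difference was 0.58 and 1.07, and with the set as a block the unadjusted limma p was 0.00624. It was 0.0323 and 0.0245 on leaving out Cd151+/+ mouse 1 or 2, and 0.0401 on leaving out Cd151-/- mouse 1. Without Cd151+/+ mouse 4 the difference was 0.45, with an unadjusted limma p of 0.157, beside 0.47 for *Eda2r*. Without Cd151-/- mouse 3 or 4 the difference was 0.72 and 0.69, beside 0.73 and 0.7 for *Tnfrsf19*. With array weights it was 0.28, beside 0.95 for *Tnfrsf19* and 0.49 for *Eda2r*. With a trended and robust variance the p was 0.0415.

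*Ltbr*, which encodes the lymphotoxin beta receptor, followed the sets of arrays rather than the genotypes. It read 9.15, 9.07, 8.26 and 7.95 in Cd151+/+ mice 1 to 4 and 7.66, 7.93, 9.17 and 8.86 in Cd151-/- mice 1 to 4. The arrays of lower background were higher by 1.00 in Cd151+/+ and by 1.22 in Cd151-/- mice, with no overlap between the sets, whereas the genotypes differed by -0.20 (95% interval -1.06 to 0.66, exact permutation p = 0.629). With array weights the genotype difference of *Ltbr* was -0.87, and the unadjusted limma p was 0.0221. *Tnfrsf19*, which encodes TROY, was detected in 1 Cd151+/+ and 2 Cd151-/- mice. It read 4.50, 4.60, 5.40 and 4.79 in the former group and 5.72, 6.16, 4.62 and 4.69 in the latter. Its Cd151-/- mice were split, with mice 1 and 2 above and mice 3 and 4 within the Cd151+/+ range, and the difference was 0.47 (95% interval -0.34 to 1.28). It was 0.17 without Cd151-/- mouse 2 and 0.95 with array weights, where the unadjusted limma p was 0.00774.

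The 7 tested ligands were near the limit of detection, and none of them was detected on all 8 arrays. *Tnfsf9* encodes the ligand of 4-1BB, a receptor on activated lymphocytes. It read 7.07, 6.39, 5.31 and 5.92 in Cd151+/+ mice 1 to 4, and in Cd151-/- mice 5.25, 5.32, 5.44 and 5.55. The Cd151+/+ mice were widely spread (SD 0.74) and the Cd151-/- mice close together (SD 0.13), with Cd151+/+ mouse 3 among the latter. The log2 fold change was -0.78 (SE 0.33, 95% interval -1.51 to -0.05; unadjusted limma p = 0.0383, exact permutation p = 0.114), and it was -1.23 and -0.33 within the arrays of lower and higher background. The unadjusted p was 0.118 without Cd151+/+ mouse 1, 0.0842 without Cd151+/+ mouse 2, and 0.0813, 0.0715 and 0.0564 without Cd151-/- mouse 1, 2 or 3. The difference was -0.50 without Cd151+/+ mouse 1, -0.32 without background subtraction (0.0743), -0.51 with an offset of 50 (0.0542) and -0.74 after scaling to the 75th percentile (0.0877).

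*Tnf* itself, the founding ligand, was detected in 2 Cd151+/+ mice and 1 Cd151-/- mouse. It read 4.98, 5.58, 4.56 and 5.84 in Cd151+/+ mice and 4.75, 5.59, 4.74 and 4.63 in Cd151-/- mice 1 to 4. Cd151-/- mouse 2 stood apart from the other 3, and the difference of -0.31 (95% interval -1.03 to 0.41, exact permutation p = 0.371) was within the spread of the mice. *Ltb*, which encodes lymphotoxin beta, was detected in 4 Cd151+/+ and 2 Cd151-/- mice. It read 5.71, 6.19, 5.88 and 5.32 against 4.93, 5.32, 5.24 and 5.83, a difference of -0.45 (95% interval -1.03 to 0.14; unadjusted limma p = 0.12, exact permutation p = 0.143). Without Cd151-/- mouse 4, the highest of its group, the limma p was 0.0369, and with array weights the difference was -0.72 (0.00962). The other tested ligands were *Tnfsf13b* (BAFF), *Lta*, *Tnfsf11* (RANKL) and *Tnfsf8* (the ligand of CD30). Their fitted differences were -0.37 to 0.39, and each of their 95% intervals included 0. *Tnfsf8* was detected in no Cd151+/+ mouse and *Lta* in no Cd151-/- mouse. The fitted differences of both are set against a group below detection and are no bound.

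Among the receptors of lymphocytes and antigen-presenting cells, *Cd40* was detected by its brightest probe on every array. It read 10.82, 11.22, 10.52 and 10.18 in Cd151+/+ mice and 10.51, 10.63, 10.90 and 10.13 in Cd151-/- mice 1 to 4. The groups overlapped, with a difference of -0.14 (95% interval -0.74 to 0.46), and the other 3 probes gave -0.29 to -0.03. The difference was 0.04 without Cd151+/+ mouse 2. *Cd27*, *Tnfrsf4* (OX40), *Tnfrsf9* (4-1BB) and *Tnfrsf17* (BCMA) had fitted differences of -0.03 to 0.30, with intervals that included 0. Neither *Tnfrsf9* nor *Tnfrsf17* was detected in any Cd151+/+ mouse, so their fitted differences are no bound. The intervals of *Relt*, *Psmg2* and Tnfsf12-tnfsf13 included 0 too.

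The pathway around the receptors was read from lists of adaptors and kinases, NF-kB subunits and inhibitors, target genes, shedding enzymes and family genes under other symbols. Of 49 tested genes in them that are not members, 2 were lower at an unadjusted p of 0.05 (4.08%, against 2.46% of all genes) and none was higher. None passed adjustment, and the median log2 fold change was -0.10, with 30 below 0. The 18 adaptors and kinases had a median of -0.10 and the 10 NF-kB core genes of -0.16, with no gene past the unadjusted threshold in either list. In 2 of the 49 genes, *Rhbdf2* and the adaptor *Traf6*, every Cd151-/- mouse was below every Cd151+/+ mouse, beside 1.33% of all genes. *Traf6* differed by -0.17 (unadjusted limma p = 0.364, exact permutation p = 0.0286). The 16 target genes had a median of 0.02, and the shedding list of 4 tested genes a median of 0.04.

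*Junb*, an AP-1 subunit and a target of TNF, read 12.91 ± 0.61 in Cd151+/+ and 11.42 ± 1.01 in Cd151-/- mice, a log2 fold change of -1.48 (SE 0.47; unadjusted limma p = 0.00943, adjusted p = 0.918, exact permutation p = 0.0571). Cd151-/- mouse 2, at 12.55, lay above Cd151+/+ mouse 3, at 12.03, and the difference was -2.26 within the arrays of lower and -0.70 within those of higher background. *Rhbdf2* encodes iRhom2, which brings the TNF-shedding protease ADAM17 to the cell surface. It read 6.32 ± 0.21 and 5.73 ± 0.16, without overlap of the groups, a log2 fold change of -0.59 (SE 0.21; unadjusted limma p = 0.0157, adjusted p = 0.918, exact permutation p = 0.0286). *Adam17* differed by 0.22, and *Nfkbia*, the NF-kB inhibitor that NF-kB itself induces, by -0.64 (exact permutation p = 0.114), with -1.11 and -0.16 within the arrays of lower and higher background.

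**Figure D4:**
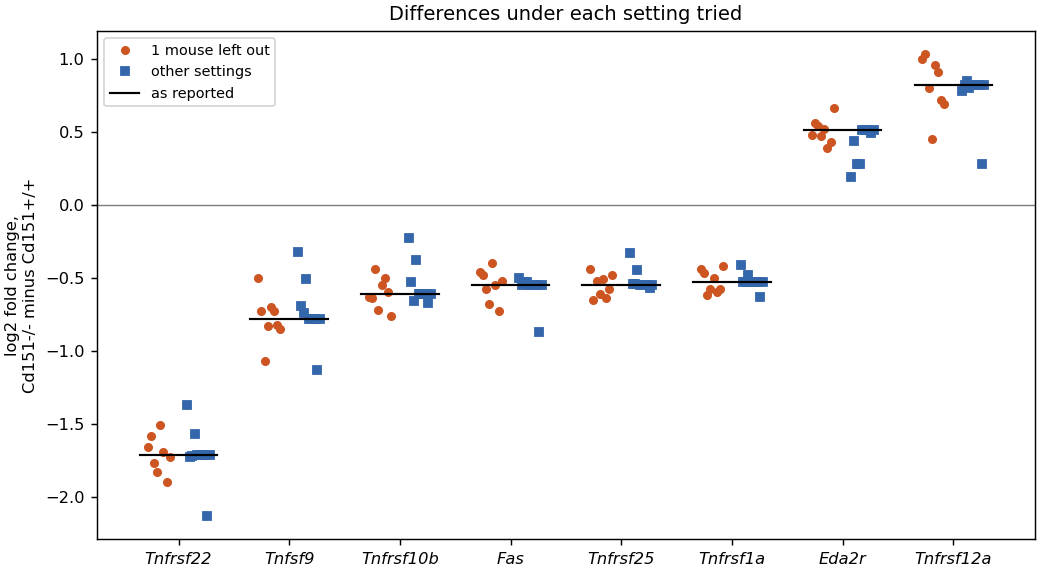
Log2 fold change (Cd151-/- minus Cd151+/+) of 8 family genes under each setting tried: black lines as reported, circles with 1 mouse left out, squares under the other settings. *Tnfrsf22* stays between -2.13 and -1.37 over all of them, and the fitted differences of the others keep their sign throughout. Those of *Eda2r* are set against a group below detection and are no bound.

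No marker gene of other or glomerular cells passed adjustment, and the summed level of each list overlapped between the genotypes. At an unadjusted limma p of 0.05 a T cell marker, *Cd3d*, and a mesangial marker, *Pdgfrb*, were lower. *Cd3d* read 5.93 ± 0.30 and 5.15 ± 0.36, without overlap (log2 fold change -0.79, SE 0.25, unadjusted limma p = 0.00941, exact permutation p = 0.0286). It was detected in 4 Cd151+/+ mice but only 1 Cd151-/- mouse, so its Cd151-/- level is near the detection limit. *Pdgfrb* read 9.60 ± 0.26 and 8.86 ± 0.65 (-0.74, SE 0.32, unadjusted limma p = 0.0399, exact permutation p = 0.114). All 7 proximal tubule markers had higher means in Cd151-/- mice (median 0.56), with summed log2 levels of 14.28 to 15.80 in Cd151+/+ and 15.31 to 16.12 in Cd151-/- mice. All 8 tested markers of T and B lymphocytes had lower means (median -0.40), with summed levels of 8.40 to 8.90 and 8.01 to 8.53, and the defining markers *Cd4*, *Cd8a* and *Cd79a* were not detected on any array. Of the 6 tested macrophage and pan-leukocyte markers 5 had higher means (summed levels 10.89 to 12.15 and 11.24 to 12.26), and *Ptprc*, *Itgam*, *Adgre1* and *Fcer1g* were not detected. The 5 tested podocyte markers had lower means (median -0.19), with summed levels of 16.64 to 16.73 and 16.41 to 16.75, and 8 of the 9 glomerular endothelial markers did too (median -0.35; 15.22 to 15.59 and 14.61 to 15.56). The 5 tested mesangial and smooth muscle markers had a median of -0.35 (summed levels 14.00 to 14.45 and 13.91 to 14.66) and the 4 of distal tubule and collecting duct one of -0.33 (14.43 to 15.43 and 13.88 to 14.79). The part of these marker values in the lower *Tnfrsf22*, *Tnfrsf1a*, *Tnfrsf25*, *Tnfrsf10b* and *Tnfsf9* and in the higher *Eda2r* was not tested.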

How the data were processed

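Glomerular RNA of 8 mice was amplified, labelled and read on 8 arrays, and the authors deposited for each probe a signal intensity, neither background-subtracted nor normalised, and a detection p-value in steps of 1 over 798. No slide is named, so none was fitted. Background was inferred from the detection p-values, signals were normalised with neqc (offset 16, quantile) and genotypes were fitted with lmFit and eBayes (limma 3.58.1, R 4.3.3). Testing covered 14967 probes, those whose detection p-value was at most 0.05 on any array, p-values were adjusted by Benjamini-Hochberg across them, and 11104 genes were counted by the probe with the highest mean over the 8 mice. Exact permutation tests were two-sided over 70 relabelings. Precision is limited by signal over background and by having 8 arrays. Symbols were matched to GRCm38.p6 (17240 of 18120, 5204 through a synonym).

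A fold of a probe detected on no array of a group was taken against the lowest detected signal on those arrays. It is a bound only where every mouse of the other group was detected. Member genes were given in full if past an unadjusted p of 0.05, without overlap of the groups, among the 10 largest changes or central to the pathway, and pathway genes if past the unadjusted p. *Nfkbia*, *Adam17* and *Traf6* were named after their values were seen. The members and lists were chosen with earlier results of these data known. Alternatives were other background corrections, normalisations, offsets, detection filters, variances, array weights, a mouse-number block, each mouse left out, and SAM over all relabelings. The block by set of arrays was added after the data were seen. The procedures were tested on simulated data. The real-time PCR and the C57BL/6 mice were not analysed here. The result of 1 marker gene is not reported here.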

Additional observations from a re-analysis of the deposited data

Results flagged for a closer look

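Among 30 groups checked (the named family genes in each genotype), 1 held a mouse that stood apart from the others: *Tnf* in Cd151-/- mouse 2, at a normalised log2 signal of 5.59, while the other 3 Cd151-/- mice read 4.63 to 4.75. Its gap to the nearest mouse was 0.881 of the range of the group, above Dixon's 95% critical value for 4 samples. Chance alone gives such a gap in about 1 in 20 groups. In that group *Tnf* was detected in 1 mouse.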

How the results depend on the processing

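The log2 fold change of *Tnfrsf22* kept its sign and an unadjusted limma p under 0.05 in every refit. It was -2.13 with array weights (adjusted p = 0.0102) and -1.71 with a block by set of arrays, a setting chosen after seeing the data (adjusted p = 0.0131). The same -1.71 was called by SAM at an FDR of 0.197, as the only family gene of its 91 probes, and leaving out each mouse gave -1.90 to -1.51. Over the settings that refit the model on all 8 mice its adjusted p ran from 0.0102 to 0.998. The count of lower family genes (5) was 2 after scaling to the 75th percentile, 2 with a trended and robust variance, 9 with array weights and 1 to 6 with a mouse left out. Of all genes 1.58% were lower after that scaling, 2.28% with that variance and 1.19% to 5.01% with a mouse left out. The count of higher family genes (1) was 0 without normexp, with the cubic spline, with scaling to the 75th percentile, with an offset of 50 and with detection on all 4 arrays of a group. In those settings 1.04% to 1.94% of all genes were higher. The family count was 2 with the trended and robust variance, 3 with array weights, 2 with the set block and 0 to 1 with a mouse left out. Array weights called 16.5% of all genes lower and 15.4% higher, and the set block 5.61% and 5.23%. After adjustment 1 family gene, not 0, passed with array weights and 1 with the set block, beside 5 and 6 of all 11104 genes. The family's median (-0.06) was -0.19 after scaling to the 75th percentile, -0.27 with detection on all 4 arrays of a group, -0.18 with array weights, and -0.16 to -0.01 with a mouse left out. Over all genes the median was -0.06 after that scaling, -0.01 with that detection filter and -0.03 with array weights. Pathway genes outside the family (2 lower, 0 higher) were 12 and 3 with array weights, 1 higher with the set block, and 1 to 4 lower and 0 to 1 higher with a mouse left out. Signs turned for *Cd40* (-0.31 to 0.04 with a mouse left out; positive without Cd151+/+ mouse 2), *Ltbr* (-0.46 to 0.05; positive without Cd151-/- mouse 1), *Tnfrsf21* (-0.13 with array weights, and -0.05 to 0.33 with a mouse left out, negative without Cd151-/- mouse 4) and *Tnfrsf11b* (-0.19 after scaling to the 75th percentile, -0.07 with array weights, and -0.17 to 0.21 with a mouse left out, negative in 5 of 8 cases). Of the values of the other 14 named genes, 176 kept their direction and side of the threshold, 44 lost and 16 gained an unadjusted p under 0.05, and 11 reversed. The cause of these changes was not tested. Genes near the detection limit (all ligands, *Eda2r*, *Tnfrsf10b*) are limited by signal over background.

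Mice with the same number did not deviate together, with correlations of -0.58, -0.40, -0.53 and -0.01, and 0 of 4 numbers correlated best with its own. With the mouse number as a replicate block, 1 family gene was lower and 0 were higher, beside 1.27% and 1.56% of all genes. In that fit 1 pathway gene was lower, and *Tnfrsf22* stayed at -1.71.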
